A study of Mus musculus with 6 samples.

Results

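The genes described here encode the matrix metalloproteinases (MMPs), the ADAM and ADAMTS proteases, the ADAMTS-like proteins and the tissue inhibitors of metalloproteinases (TIMPs). Members were chosen by a rule on gene names, with earlier results of these data known. They are the protein-coding mouse genes whose symbol begins with Mmp, Adam or Timp followed by a digit, or with Adamts, and there were 83 of them among the 48440 genes of the count table. Mmp1a was left out because the annotation lists it as a polymorphic pseudogene. RNA was sequenced from mouse ovarian surface epithelial cells, the cell layer that covers the ovary, 7 days after adenoviral transduction. The Ad-Cre-GFP group (3 libraries, genotype label Lats1/2 knockout) received an adenovirus with Cre recombinase and GFP, and the Ad-GFP group (3 libraries, genotype label WT) received one with GFP alone. LATS1 and LATS2 are the core kinases of the Hippo pathway. Both groups carry GFP and both were exposed to adenovirus. The sources used here do not give the strain, the alleles that Cre recombines, whether the Ad-GFP cells carry them, or the number of animals or cultures behind the libraries.

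MMPs, ADAMs and ADAMTS proteases are zinc enzymes made as inactive precursors, and removal of the prodomain, often by furin-like convertases or by another protease, makes them active. Secreted MMPs and ADAMTS proteases cut matrix proteins, membrane-bound MMPs act at the cell surface, and ADAMs release the outer parts of membrane proteins such as growth factor precursors and Notch. TIMPs bind the active site of many of these enzymes and block it. In the ovary these enzymes are known for the opening of the follicle wall and the surface epithelium at ovulation and for the repair that follows. Transcript counts do not measure enzyme activity.

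Library totals were 27734527 to 30304033 counts in Ad-Cre-GFP and 18690235 to 25363462 in Ad-GFP, so each Ad-Cre-GFP library was deeper than each Ad-GFP library. Levels are given as TMM-scaled CPM, counts divided by the library's depth. Lats1 was at 37.1 ± 1.36 CPM in Ad-Cre-GFP and 159 ± 8.74 CPM in Ad-GFP, and Lats2 at 98.6 ± 1.97 and 129 ± 2.17 CPM (SD, n = 3 each). Fitted levels in Ad-Cre-GFP were 23.3% of Ad-GFP for Lats1 and 76.2% for Lats2. Counts cover whole genes, so that they need not measure the loss of single exons. Of 12 markers of the labelled cell type, 11 were detected well enough to be tested (5 higher, 6 lower). The list summed to 3812 to 3846 CPM in Ad-Cre-GFP and 4137 to 4177 CPM in Ad-GFP. Single markers moved more than this sum. The largest rises were those of Krt7 (1.39 ± 0.15), Msln (1.10 ± 0.03) and Upk3b (1.05 ± 0.04). The largest falls were those of Krt19 (-1.60 ± 0.03), Gata4 (-1.37 ± 0.03) and Wt1 (-1.15 ± 0.04), as log2 changes with SE. Immune markers, relevant because leukocytes make several MMPs, summed to 6.89 to 7.33 CPM in Ad-Cre-GFP and 10.99 to 13.2 CPM in Ad-GFP. They consisted mostly of Cd14 and Cd68, 2 of the 10 listed, and Csf1r, Adgre1, Itgam, Lyz2, S100a9 and Cd3e had at most 3 counts in any library. Stromal fibroblast markers, of a cell type rich in MMP expression, summed to 274 to 295 CPM in Ad-Cre-GFP and 376 to 395 CPM in Ad-GFP, with 4 of 8 tested and all 4 lower (median log2 change -1.94). Col1a1 made up most of that sum and changed by -0.16 ± 0.03, whereas Dcn (-1.91 ± 0.05), Pdgfra (-1.98 ± 0.40) and Dpt (-3.98 ± 0.69, on 2 counts in all Ad-Cre-GFP libraries and 29 in all Ad-GFP libraries) fell more. Of that list Lum, Pdgfrb and Tcf21 had at most 3 counts in any library. Col1a2 had 6 counts in all Ad-Cre-GFP libraries and 4 in all Ad-GFP libraries, too few to test. Endothelial markers summed to 22.0 to 23.3 CPM in Ad-Cre-GFP and 8.24 to 9.81 CPM in Ad-GFP (3 of 6 tested, all 3 higher, Cdh5 and Tie1 at 3 counts or fewer), and granulosa markers to 3.03 to 4.14 and 3.23 to 3.78 CPM (3 of 5 tested, 2 higher and 1 lower, Fshr and Cyp19a1 at 3 counts or fewer). Dpt and Pdgfra had enough counts for the test only through Ad-GFP, and Kdr (endothelial) and Foxl2 (granulosa) only through Ad-Cre-GFP. These markers had to differ to be tested, and they are counted in the directions and the median above. The part of these other cell types in the results below was not tested. In bulk RNA, fewer cells of a type and less RNA per cell cannot be told apart.

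Of the 83 members, 41 had enough counts to be tested and 42 did not. Among the 41, 10 rose and 23 fell in Ad-Cre-GFP at a Benjamini-Hochberg adjusted p under 0.05 in edgeR's quasi-likelihood test over all genes, and 8 were not called. Over all 14811 genes tested, 34.0% were called higher, 35.8% lower and 69.8% in either direction, so that a call by itself is common here. Calls of at least 2-fold were made for 19 members, 5 higher and 14 lower, against 13.8% of all genes (6.25% higher and 7.56% lower). The groups did not overlap for 32 of the 41 members, against 73.0% of all genes. The median log2 fold change (Ad-Cre-GFP over Ad-GFP) was -0.30 over the tested members and -0.01 over all tested genes, and the median size of the change was 0.91 and 0.35. A gene that passed the filter on counts only through the group in which it was high had to differ, and these figures describe the tested members only. Among called members, Adamtsl1 and Adam32 passed only through Ad-Cre-GFP, and Mmp3, Adam19 and Mmp23 only through Ad-GFP. None of the 8 members without a call had an unadjusted p under 0.05.

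**Figure D1:**
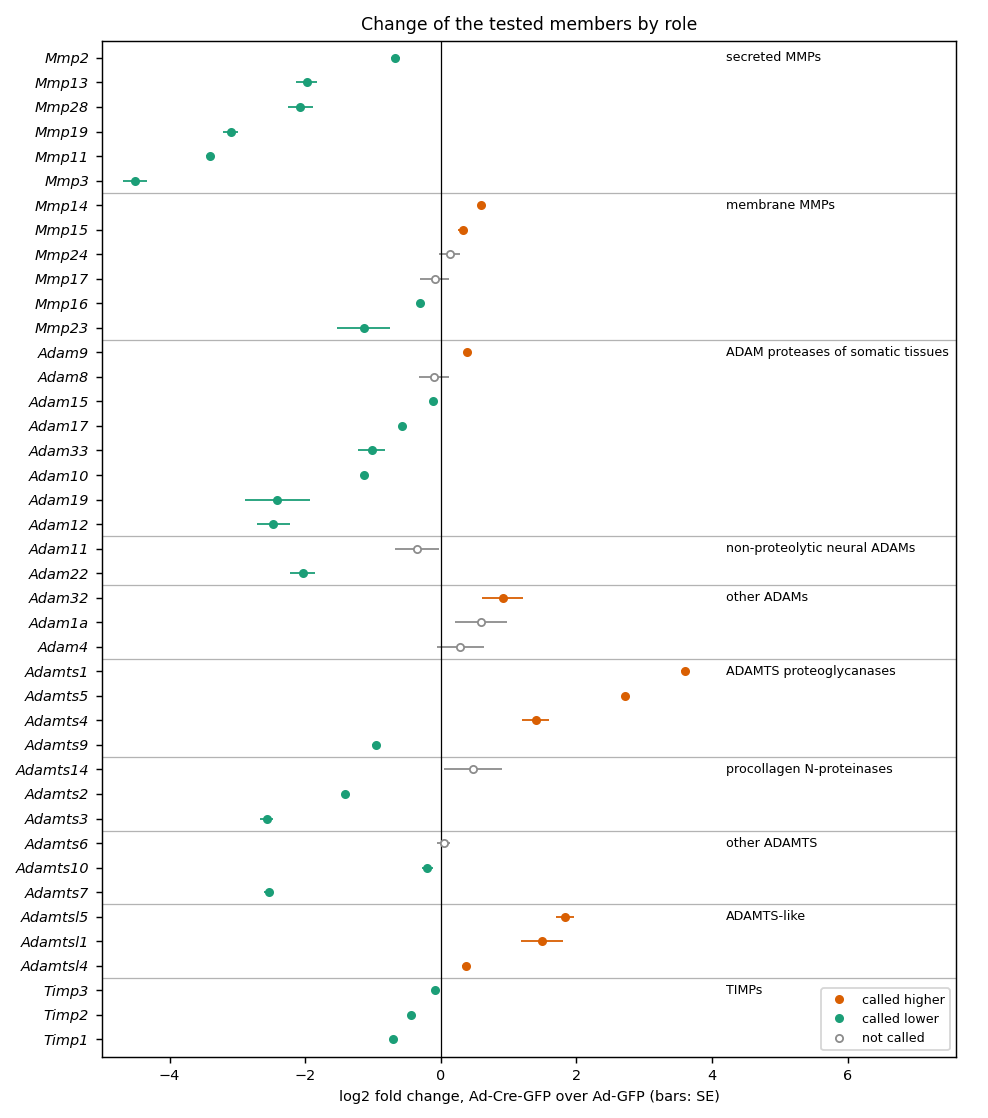
Log2 fold change of the 41 tested members, Ad-Cre-GFP over Ad-GFP, with bars of 1 standard error (SE); rows are genes grouped by role, filled symbols passed an adjusted p of 0.05 and open symbols did not. The 6 tested secreted MMPs lie left of 0, from -0.67 to -4.51, while Adamts1, Adamts5 and Adamts4 lie right of 0, up to 3.60.

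Grouped by role, the members differed in direction. All 6 tested secreted MMPs fell, by a median of -2.58 on the log2 scale, whereas the 6 tested membrane MMPs had 2 rises, 2 falls and a median of 0.02. The 4 tested stromal fibroblast markers also fell, by a median of -1.94. Dpt and Pdgfra among them passed the filter on counts only through Ad-GFP and had to differ, so this median is not a parallel to that of the MMPs. Col1a1, most of that list's sum, changed by -0.16. Of the 8 tested ADAM proteases of somatic tissues, 6 fell and 1 rose (median -0.80). Of the 4 tested ADAMTS proteoglycanases 3 rose and 1 fell (median 2.06), of the 3 procollagen N-proteinases 2 fell, and of the 3 other tested ADAMTS genes 2 fell. The 3 tested ADAMTS-like genes rose and the 3 tested TIMPs fell. Adamtsl1, Adam32, Mmp3, Adam19 and Mmp23, which passed the filter on counts through a single group, are counted in these directions and medians. These role groups are small, and differences between them were not tested.

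To compare levels between genes, CPM was divided by the length of the merged exons in kilobases. On this scale the summed level of the MMP genes was 57.1 ± 1.38 CPM per kb in Ad-Cre-GFP and 128 ± 6.54 CPM per kb in Ad-GFP (SD, n = 3 each). The sum of the ADAM genes was 305 ± 1.96 in Ad-Cre-GFP and 383 ± 15.9 CPM per kb in Ad-GFP, and that of the TIMP genes 865 ± 15.6 and 1119 ± 24.6 CPM per kb. The ADAMTS genes went the other way, with 161.5 ± 2.54 CPM per kb in Ad-Cre-GFP and 45.5 ± 0.648 CPM per kb in Ad-GFP. The groups did not overlap for any of these 4 sums. The MMP sum was 6.60% ± 0.0522 of the TIMP sum in Ad-Cre-GFP and 11.4% ± 0.349 in Ad-GFP.

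The leading gene of each protease family differed between the groups. Mmp14 made up 63.2% ± 0.808 of the MMP sum in Ad-Cre-GFP and 18.9% ± 0.488 in Ad-GFP, and Mmp11 made up 12.2% ± 0.362 in Ad-Cre-GFP and 57.9% ± 0.314 in Ad-GFP. Adam9 held 62.2% ± 0.473 of the ADAM sum in Ad-Cre-GFP and 37.8% ± 1.23 in Ad-GFP, while Adam10 held 32.1% ± 0.427 and 56.4% ± 1.25. In the ADAMTS sum, Adamts1 and Adamts5 held 49.9% ± 0.625 and 43.2% ± 0.619 in Ad-Cre-GFP, against 14.6% ± 1.45 and 23.2% ± 1.03 in Ad-GFP. Adamts2, at 28.3% ± 0.877 in Ad-GFP, was at 2.97% ± 0.00848 in Ad-Cre-GFP. Among the inhibitors Timp2 led in both groups, with 68.7% ± 0.281 of the TIMP sum in Ad-Cre-GFP and 71.8% ± 0.129 in Ad-GFP.

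**Figure D2:**
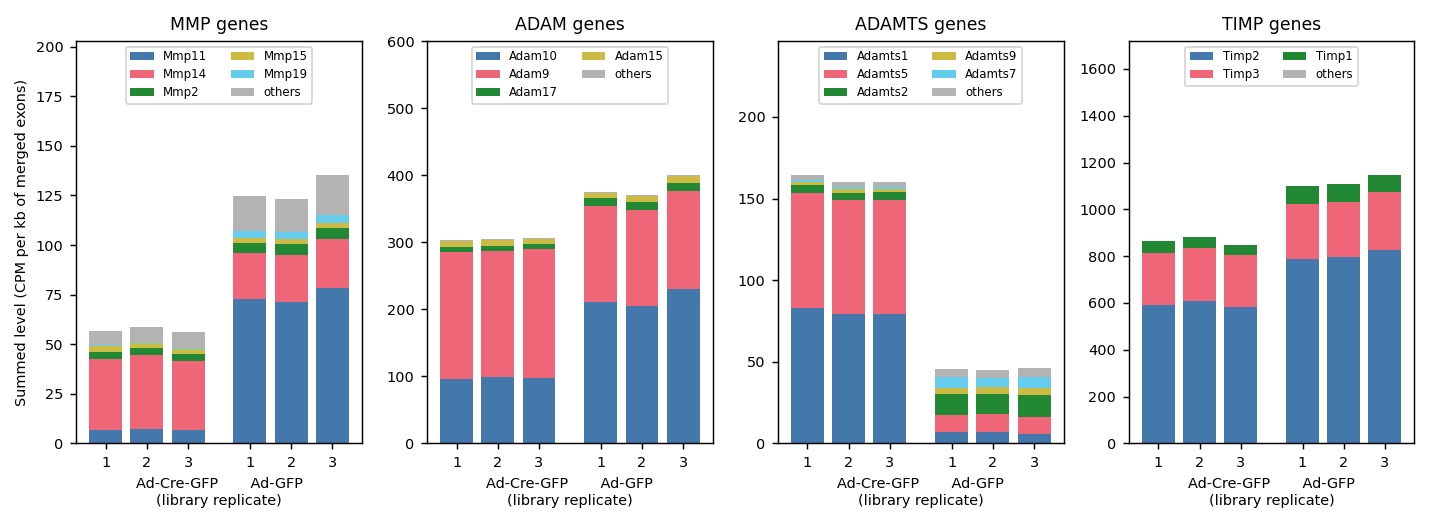
Summed level of each family in CPM per kb of merged exons, 1 stacked bar per library. The 3 Ad-Cre-GFP libraries are left of the 3 Ad-GFP libraries. Colours are selected members, the leading ones included, and grey is the rest. In the MMP bars grey includes Mmp16 (mean 4.909 in Ad-Cre-GFP and 6.068 in Ad-GFP) and Mmp3 (0.262 and 6.075), which are not smaller than every coloured member. The MMP bars are led by Mmp14 in Ad-Cre-GFP and by Mmp11 in Ad-GFP, and the ADAMTS bars are 160.0 to 164.5 in Ad-Cre-GFP against 44.8 to 46.0 in Ad-GFP.

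Among secreted MMPs, Mmp11 was the most abundant in Ad-GFP. It encodes stromelysin-3, an MMP that furin activates inside the cell, and lies on chromosome 10, 75923222 to 75936496 (GRCm38, as are all coordinates). Mmp11 was at 18.8, 20.5 and 18.75 CPM in Ad-Cre-GFP libraries 1 to 3, against 202, 198 and 217 CPM in Ad-GFP libraries 1 to 3. The 2 groups were far apart and libraries within each were close. The log2 fold change was -3.41 ± 0.05 (SE), a 10.6-fold fall (adjusted p = 6.70e-23), and Mmp11 ranked 38 from the largest fall among the 10786 tested genes with a mean of at least 5 CPM. Chchd10 on the opposite strand, whose exons share 155 bases with those of Mmp11 (5.58% of its exon bases), fell too (-1.98 ± 0.04, adjusted p = 1.68e-18), and the strand setting of the counting is unknown here.

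Mmp19, an MMP with basement membrane substrates (chromosome 10, 128790910 to 128800824), was at 1.54, 1.71 and 1.57 CPM in Ad-Cre-GFP and at 13.6, 13.5 and 14.3 CPM in Ad-GFP. Every Ad-Cre-GFP library was far below every Ad-GFP library, and the fall was 8.56-fold (log2 -3.10 ± 0.11, adjusted p = 1.42e-16). The opposite-strand gene Tmem198b shares 789 bases, 22.3% of Mmp19's exon bases, and changed by -1.07 ± 0.08 (adjusted p = 1.80e-10). Mmp2, gelatinase A, which membrane-type MMPs activate, was at 11.1, 10.9 and 11.9 CPM in Ad-Cre-GFP against 16.9, 18.8 and 18.2 CPM in Ad-GFP (-0.67 ± 0.07, adjusted p = 1.58e-08). Its fall was the smallest of the 6. Mmp28, epilysin, averaged 0.765 ± 0.113 CPM in Ad-Cre-GFP and 3.21 ± 0.224 CPM in Ad-GFP (-2.07 ± 0.19, adjusted p = 2.70e-09).

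The largest fall of any tested member was that of Mmp3, stromelysin-1, a matrix enzyme that also activates other proMMPs. Its level was 0.376, 0.602 and 0.438 CPM in Ad-Cre-GFP (11, 18 and 12 counts) against 10.1, 9.89 and 12.9 CPM in Ad-GFP (221, 253 and 243 counts). The groups did not overlap, Ad-GFP library 3 was the highest, and the fall was 22.7-fold (-4.51 ± 0.18, adjusted p = 1.94e-15). Mmp3 ranked 15 from the largest fall among the 10786 genes. It passed the filter on counts and reached the mean of 5 CPM for this ranking only through Ad-GFP (10.94 CPM on average, against 0.472 CPM in Ad-Cre-GFP). The rank therefore only describes the size of a fall that was needed for Mmp3 to be ranked. Mmp13, collagenase-3, was at 2.43, 2.44 and 3.14 CPM in Ad-Cre-GFP and at 9.15, 9.66 and 13.1 CPM in Ad-GFP, again with Ad-GFP library 3 highest and no overlap. It fell 3.96-fold (-1.98 ± 0.15, adjusted p = 1.53e-09).

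Mmp3 and Mmp13 lie in 1 gene cluster on chromosome 9 that holds 9 members, in the order Mmp13, Mmp12, Mmp1b, Mmp3, Mmp10, Mmp8, Mmp27, Mmp20 and Mmp7. No other protein-coding gene lies between neighbours of this row. Only Mmp3 and Mmp13 passed the filter on counts. Mmp10, stromelysin-2, had 14 counts in all Ad-Cre-GFP libraries and 20 in all Ad-GFP libraries, too few to test. Mmp12 had 2 and 2 counts, Mmp27 2 and 0, and Mmp20 1 and 0, while Mmp1b, Mmp8 and Mmp7 had none. The nearest flanking genes did not fall. Dcun1d5, next to Mmp13, changed by 0.30 ± 0.03 (adjusted p = 6.29e-08), and Tmem123, next to Mmp7, by 0.54 ± 0.03 (adjusted p = 1.96e-12), so both rose.

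The promoters of this cluster were read because both tested genes fell together. The motif of AP-1, the JUN and FOS dimer known as a regulator of MMP promoters, was searched for as TGANTCA, which is its own reverse complement, in RefSeq windows (GRCm38.p6) of 250 bases before to 50 bases after each gene start. It was found for 7 of the 9 cluster members. Among 57 windows of the 52 members with an entry, 12 (21.1%) held it, those of the 7 cluster members included. The share was 7.81% in 32851 windows of all genes. It was 15.8% (3 of 19) in windows of 16 members called lower, and 0 of 5 windows of members called higher held the motif. Those 5 windows were of Adamts1, Adamtsl4, Adamtsl5, Mmp14 and Mmp15. The remaining members called higher, Adamts5 among them, had no entry and were not searched. The shorter TEAD motif GGAATG (reverse complement CATTCC), read by the DNA-binding partners of YAP and TAZ, was in 7.02% of the members' windows and 14.7% of all windows. A TEAD match can overlap an AP-1 match by a few letters. A match is a description of letters and not a bound site. The AP-1 matches of the cluster are shown in capitals with 15 bases on each side, 5′ to 3′ on the gene's strand. They begin 35 bases before the RefSeq start for Mmp13, 44 for Mmp12 (in 1 of its 2 windows), 93 for Mmp1b, 46 for Mmp3, 63 for Mmp10, 95 for Mmp20 and 63 for Mmp7 (in 1 of its 2 windows).
Mmp13: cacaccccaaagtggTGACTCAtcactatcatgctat
Mmp12: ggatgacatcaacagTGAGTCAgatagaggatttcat
Mmp1b: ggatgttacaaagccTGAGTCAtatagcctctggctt
Mmp3: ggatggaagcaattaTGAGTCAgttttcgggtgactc
Mmp10: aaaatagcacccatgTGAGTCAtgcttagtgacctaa
Mmp20: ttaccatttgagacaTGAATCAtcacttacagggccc
Mmp7: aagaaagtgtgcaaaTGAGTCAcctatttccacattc
The heptamer was TGAGTCA in 5 of these 7, its reverse complement in Mmp13, and TGAATCA in Mmp20. It was thus present in the promoters of Mmp3 and Mmp13, which fell, and in those of 5 cluster genes with few or no counts in either group.

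**Figure D3:**
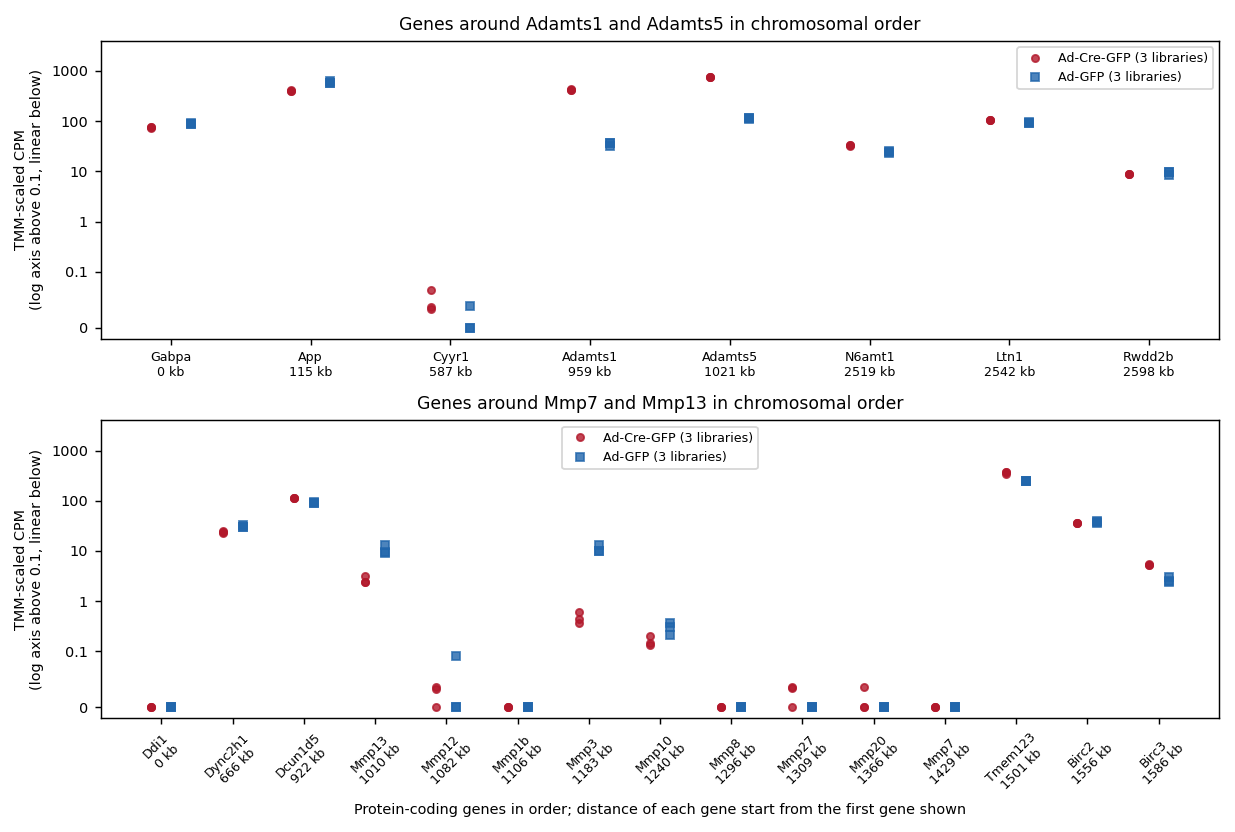
TMM-scaled CPM in each library (1 point per library, log axis above 0.1 and linear below) for protein-coding genes in chromosomal order, around Adamts1 and Adamts5 (upper) and around the Mmp cluster (lower); labels give the distance of each gene's lowest coordinate from that of the first gene shown. Adamts1 and Adamts5 separate the groups upward between flanking genes with smaller changes, and Mmp13 and Mmp3 separate them downward.

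Membrane-bound MMPs went both ways. Mmp14, MT1-MMP, a collagenase of the cell surface that activates proMMP2 together with TIMP2 (chromosome 14, 54431612 to 54445364), was at 215, 223 and 208 CPM in Ad-Cre-GFP against 140, 142.5 and 148.5 CPM in Ad-GFP. All Ad-Cre-GFP libraries were above all Ad-GFP libraries, and Mmp14 rose (0.59 ± 0.03, adjusted p = 1.09e-12). Mmp15, MT2-MMP, averaged 14.9 ± 0.644 CPM in Ad-Cre-GFP and 12.0 ± 0.559 CPM in Ad-GFP (0.32 ± 0.07, adjusted p = 0.000381). Mmp16, MT3-MMP, fell with 42.9, 42.6 and 42.2 CPM in Ad-Cre-GFP against 55.1, 46.95 and 55.7 CPM in Ad-GFP (-0.30 ± 0.05, adjusted p = 7.37e-05). Mmp17 (-0.09 ± 0.21) and Mmp24 (0.13 ± 0.15) were not called. Mmp23 was at 0.273, 0.201 and 0.511 CPM in Ad-Cre-GFP against 1.00, 0.704 and 0.424 CPM in Ad-GFP. It was called lower (-1.14 ± 0.39, adjusted p = 0.012), and it was the only called member whose groups overlapped. The call was lost without Ad-Cre-GFP library 2 (-0.88, adjusted p = 0.0634), without Ad-GFP library 1 (-0.84, adjusted p = 0.106) and with DESeq2 (adjusted p = 0.0531).

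Among ADAMs the pair with the highest levels moved in opposite directions. Adam10 encodes a sheddase of Notch receptors and E-cadherin (chromosome 9, 70678997 to 70780229). It was at 475, 489 and 480.5 CPM in Ad-Cre-GFP, against 1038, 1006 and 1136 CPM in Ad-GFP, a 2.20-fold fall with no overlap (-1.14 ± 0.04, adjusted p = 1.39e-15). Adam9, a membrane protease whose protein also binds integrins (chromosome 8, 24949611 to 25016927), was at 778, 774 and 789 CPM in Ad-Cre-GFP against 589, 594 and 602 CPM in Ad-GFP. It rose 1.31-fold (0.39 ± 0.03, adjusted p = 4.66e-11), and libraries within each group differed by little. Per kilobase of exon, Adam9 was at 189.6 ± 1.91 and Adam10 at 98.0 ± 1.47 in Ad-Cre-GFP, and Adam9 was at 145 ± 1.59 and Adam10 at 216 ± 13.8 in Ad-GFP. The order of the pair was thus reversed between the groups by more than the spread of the libraries.

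Adam17, which releases TNF and several ligands of the EGF receptor, was at 54.4, 55 and 58.1 CPM in Ad-Cre-GFP and at 81.5, 81.0 and 85.75 CPM in Ad-GFP (-0.57 ± 0.04, adjusted p = 2.09e-11). Adam15 averaged 49.7 ± 2.11 CPM in Ad-Cre-GFP and 53.9 ± 1.68 CPM in Ad-GFP (-0.11 ± 0.04, adjusted p = 0.0236), and this call was lost under 5 alternatives, with adjusted p-values up to 0.233 without Ad-Cre-GFP library 3. Adam12, meltrin alpha, averaged 0.483 ± 0.104 CPM in Ad-Cre-GFP and 2.75 ± 0.528 CPM in Ad-GFP (-2.47 ± 0.24, adjusted p = 5.04e-09). Its relative Adam19, meltrin beta, had 7 counts in all Ad-Cre-GFP libraries and 30 in all Ad-GFP libraries (-2.41 ± 0.48, adjusted p = 0.000144). Adam33 fell by 1.02 ± 0.20 on the log2 scale (adjusted p = 0.000147), and Adam8 (-0.10 ± 0.22) was not called.

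Of the ADAMs without protease activity that are known from neurons, Adam22, a receptor for the secreted protein LGI1, averaged 0.854 ± 0.0152 CPM in Ad-Cre-GFP and 3.54 ± 0.335 CPM in Ad-GFP (-2.04 ± 0.18, adjusted p = 1.22e-09). Adam11 (-0.35 ± 0.32) was not called. Of 21 other ADAMs, most of them known from testis, 3 were tested. Adam32 had 0.796 ± 0.0829 CPM in Ad-Cre-GFP and 0.417 ± 0.0949 CPM in Ad-GFP (0.91 ± 0.30, adjusted p = 0.0113). Adam32 begins 806 bases beyond the end of the abundant Adam9 on the same strand, and the call did not hold in DESeq2 (adjusted p = 0.0678) or without Ad-GFP library 1 (adjusted p = 0.0649). Adam1a (0.59 ± 0.38) and Adam4 (0.29 ± 0.34) were not called, and the counts of Adam1a are uncertain because its exons overlap those of Mapkapk5 and Gm42878 and resemble those of Adam1b.

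**Figure D4:**
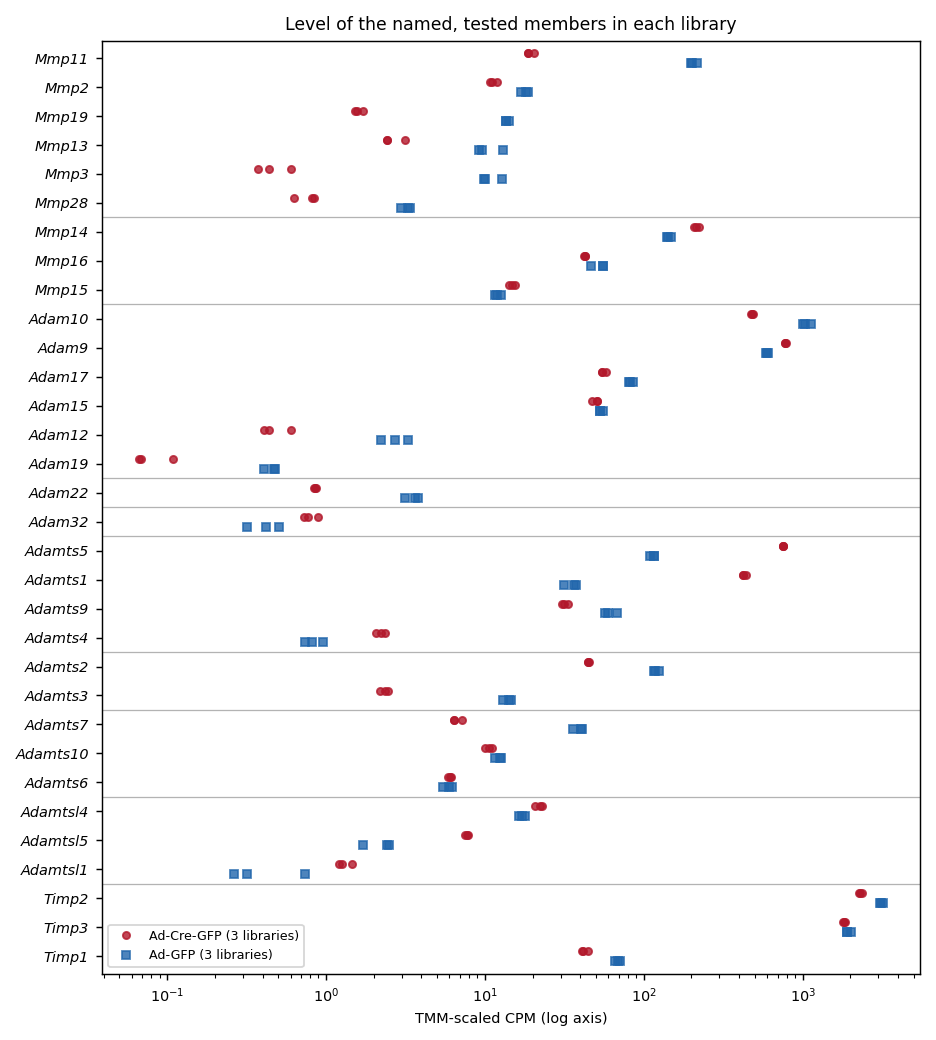
TMM-scaled CPM (log axis) of each named member with a test, 1 point per library, with Ad-Cre-GFP circles above Ad-GFP squares; grey lines separate the role groups in the order secreted MMPs, membrane MMPs, ADAM proteases, neural ADAMs, other ADAMs, ADAMTS proteoglycanases, procollagen N-proteinases, other ADAMTS, ADAMTS-like and TIMPs. Circles and squares are apart for every gene shown except Adamts6.

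The largest rises among the 41 tested members were those of Adamts1 and Adamts5. Both encode secreted proteoglycanases that cut versican and aggrecan, and Adamts1 is known for its role in ovulation, when it is induced in granulosa cells. Adamts1 (chromosome 16, 85793827 to 85803113) was at 441, 420 and 421 CPM in Ad-Cre-GFP libraries, against 36.2, 37.6 and 31.7 CPM in Ad-GFP libraries. It rose 12.1-fold (3.60 ± 0.05, adjusted p = 4.48e-22) and ranked 21 from the largest rise among the 10786 genes with a mean of at least 5 CPM. Adamts5 (chromosome 16, 85856173 to 85901828) was at 755, 752 and 754 CPM in Ad-Cre-GFP against 116.4, 116.3 and 110 CPM in Ad-GFP. It rose 6.60-fold (2.72 ± 0.03, adjusted p = 4.04e-24) and ranked 52. The libraries of each group were nearly level for both genes, and the groups were far apart.

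Adamts1 and Adamts5 are neighbours on the same strand, with 53059 bases between them and no protein-coding gene in that gap. The genes around them did not share the size of the rise. On the side of Adamts1, Cyyr1 had 4 counts in all Ad-Cre-GFP libraries and 1 in all Ad-GFP libraries, and App, the amyloid precursor gene, fell (404 CPM in Ad-Cre-GFP and 594 CPM in Ad-GFP on average, -0.55 ± 0.03, adjusted p = 1.26e-12). On the side of Adamts5, N6amt1 rose by 0.45 ± 0.05 (adjusted p = 8.43e-08) and Ltn1 by 0.20 ± 0.03 (adjusted p = 1.24e-05). The promoter of Adamts1 is shown because this gene had the largest rise of the tested members. The 250 bases before its start (chr16:85803114-85803363, minus strand) held neither motif, so that no letter is in capitals.
Adamts1: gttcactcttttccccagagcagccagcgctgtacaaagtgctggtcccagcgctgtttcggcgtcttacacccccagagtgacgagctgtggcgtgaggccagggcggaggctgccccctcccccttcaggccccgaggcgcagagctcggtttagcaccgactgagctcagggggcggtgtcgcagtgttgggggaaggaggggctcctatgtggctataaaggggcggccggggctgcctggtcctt

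Adamts4, the third aggrecan-cutting enzyme of this set with a rise, stayed at a low level. It was at 2.36, 2.24 and 2.08 CPM in Ad-Cre-GFP and at 0.956, 0.821 and 0.741 CPM in Ad-GFP (1.40 ± 0.20, adjusted p = 2.73e-06). Adamts9, a versicanase (chromosome 6, 92772699 to 92943492), went the other way, with 31.4, 33.3 and 30.6 CPM in Ad-Cre-GFP against 59.8, 56.8 and 68.2 CPM in Ad-GFP (-0.95 ± 0.06, adjusted p = 3.25e-10). The opposite-strand gene A730049H05Rik shares 1381 bases with Adamts9 (9.18% of its exon bases) and fell more (-4.09 ± 0.20, adjusted p = 2.39e-13). Per kilobase of exon, Adamts1 (80.6 ± 2.29) and Adamts5 (69.9 ± 0.134) were far above Adamts9 (2.11 ± 0.0902) and Adamts4 (0.463 ± 0.0292) in Ad-Cre-GFP. In Ad-GFP the order was Adamts5 (10.6 ± 0.363), Adamts1 (6.63 ± 0.584), Adamts9 (4.09 ± 0.394) and Adamts4 (0.175 ± 0.0226). Adamts15 had 12 counts in all Ad-Cre-GFP libraries and 1 in all Ad-GFP libraries, too few for the test (with no filter on counts its fitted log2 change was 2.86, adjusted p = 0.0368), as were the counts of Adamts8 (0 and 1) and Adamts20 (none).

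The procollagen N-proteinases, which trim the amino-terminal propeptide of fibrillar procollagens, fell where they were well expressed. Adamts2 (chromosome 11, 50602084 to 50807573) was at 45.6, 44.6 and 44.4 CPM in Ad-Cre-GFP, against 117, 118 and 125 CPM in Ad-GFP, a 2.67-fold fall (-1.42 ± 0.04, adjusted p = 1.08e-18). Adamts3, which also takes part in the activation of VEGF-C, was at 2.19, 2.47 and 2.37 CPM in Ad-Cre-GFP and at 14.3, 13.0 and 14.7 CPM in Ad-GFP (-2.57 ± 0.10, adjusted p = 1.68e-15). Neither gene had overlapping groups. Adamts14, at 0.466 ± 0.142 CPM in Ad-Cre-GFP and 0.352 ± 0.212 CPM in Ad-GFP, was not called (0.47 ± 0.43).

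Adamts7, which cuts the cartilage oligomeric matrix protein COMP (chromosome 9, 90163069 to 90208071), was at 7.25, 6.45 and 6.38 CPM in Ad-Cre-GFP against 40.3, 36.1 and 41.2 CPM in Ad-GFP. This 5.83-fold fall (-2.54 ± 0.07, adjusted p = 2.86e-18) ranked 86 from the largest among the 10786 genes. Adamts10, which acts on fibrillin microfibrils, averaged 10.6 ± 0.540 CPM in Ad-Cre-GFP and 12.2 ± 0.585 CPM in Ad-GFP (-0.20 ± 0.08, adjusted p = 0.0224), and its call was lost under 6 alternatives, with adjusted p-values up to 0.111. Its close relative Adamts6 was at 6.12, 6.02 and 5.87 CPM in Ad-Cre-GFP and at 5.92, 5.47 and 6.20 CPM in Ad-GFP, with overlapping groups and no call (0.04 ± 0.10, adjusted p = 0.734).

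The ADAMTS-like proteins share the ancillary domains of ADAMTS proteases and lack the protease domain. Adamtsl4, which binds fibrillin-1, was at 22.9, 22.3 and 20.8 CPM in Ad-Cre-GFP and at 16.4, 17.05 and 17.8 CPM in Ad-GFP (0.37 ± 0.06, adjusted p = 1.31e-05). Adamtsl5 was at 7.52, 7.76 and 7.88 CPM in Ad-Cre-GFP and at 2.41, 1.72 and 2.49 CPM in Ad-GFP, a 3.54-fold rise (1.83 ± 0.13, adjusted p = 3.76e-11). Adamtsl1 was at 1.26, 1.47 and 1.20 CPM in Ad-Cre-GFP and at 0.319, 0.743 and 0.265 CPM in Ad-GFP, so that Ad-GFP library 2 was the highest of its group. It rose 2.81-fold (1.49 ± 0.31, adjusted p = 0.000174), and 4.42-fold without Ad-GFP library 2. Adamtsl3, with 26 and 16 counts, was too low to test, and Adamtsl2 had none.

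The inhibitors fell by small amounts from high levels. Timp2 (chromosome 11, 118301069 to 118355740), at 2305, 2367 and 2276 CPM in Ad-Cre-GFP against 3074, 3106 and 3215 CPM in Ad-GFP, fell 1.35-fold (-0.44 ± 0.03, adjusted p = 2.39e-11). Timp1 (chromosome X, 20870166 to 20874735), a secreted inhibitor of most soluble MMPs, was at 44.7, 41.4 and 40.8 CPM in Ad-Cre-GFP and at 69.0, 70.5 and 66.3 CPM in Ad-GFP (-0.70 ± 0.04, adjusted p = 3.37e-12). Neither gene had overlapping groups. Timp3 is bound to the matrix and also inhibits ADAM17 and the aggrecan-cutting ADAMTS enzymes. It was at 1812, 1844 and 1786 CPM in Ad-Cre-GFP against 1902, 1899 and 2010 CPM in Ad-GFP. Its change was small (-0.09 ± 0.03, adjusted p = 0.00965), and the call was lost without Ad-Cre-GFP library 1 (adjusted p = 0.064) and without Ad-Cre-GFP library 3 (adjusted p = 0.11). The exons of Timp3 overlap those of Syn3 on the opposite strand, which held 279 counts in all libraries against 285439 for Timp3. Timp4 had 1 count in each group.

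The 21 members with 0 counts in every library included 11 of the 21 other ADAMs, among them Adam2 and Adam7, together with Adam28, Mmp25, Adamts12, Adamts18, Adamts19 and those already named. A count of 0 allows up to 3 counts, which is 0.1003 to 0.109 CPM in an Ad-Cre-GFP library and 0.117 to 0.159 CPM in an Ad-GFP library (counting error only). The other 21 untested members had at most 11 counts in any library. Besides those given above they included Mmp9, gelatinase B (2 counts in each group), Adamts16 (13 in Ad-Cre-GFP and 25 in Ad-GFP), Adam1b (15 and 3), Adam30 (14 and 12), Adam21 (11 and 2) and Adam5 (9 and 2). Mmp21 had 3 counts in each group, Adamts13 1 and 3, Adam23 2 and 0, and Adam3, Adam18, Adam25 and Adamts17 a single count in all. Several ADAMs known from testis, such as Adam25, Adam26a and Adam34, have near-identical annotated copies, so that their counts are uncertain.

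Genes that act with these proteases were read from 4 lists. Over all tested genes 34.0% were called higher, 35.8% lower and 69.8% in either direction, so the numbers of calls in these lists are not a result by themselves. Of 11 tested activators and inhibitors of matrix proteases 3 rose and 6 fell, with a median log2 change of -0.37. The proprotein convertases, which remove prodomains, moved apart. Pcsk5 rose (25.8 ± 0.574 CPM in Ad-Cre-GFP and 3.60 ± 0.382 CPM in Ad-GFP, 2.83 ± 0.08, adjusted p = 4.59e-18), as did Pcsk6 (2.18 ± 0.17, adjusted p = 1.60e-10), whereas Furin fell (90.8 ± 2.50 and 175 ± 5.01 CPM, -0.94 ± 0.03, adjusted p = 2.08e-16). The plasminogen activators also moved apart, with a rise of Plau, urokinase (1.43 ± 0.17, adjusted p = 1.21e-05), and a fall of Plat, the tissue-type activator (-1.45 ± 0.06, adjusted p = 9.04e-16). Lrp1, a receptor that clears MMPs, ADAMTS proteases and TIMPs from the cell surface, fell (15.5 ± 0.515 CPM in Ad-Cre-GFP and 36.4 ± 1.59 CPM in Ad-GFP, -1.23 ± 0.06, adjusted p = 1.47e-14). Reck, a membrane-anchored MMP inhibitor, was not called (-0.21 ± 0.14, adjusted p = 0.20).

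Of 8 tested partners of ADAM10 and ADAM17, 2 rose and 4 fell (median -0.20). Those that guide ADAM17 included Rhbdf2, an iRhom that carries it out of the endoplasmic reticulum, which fell (29.2 ± 0.109 CPM in Ad-Cre-GFP and 53.8 ± 2.13 CPM in Ad-GFP, -0.88 ± 0.05, adjusted p = 1.17e-13). Frmd8, which stabilises that complex, fell as well (-0.55 ± 0.03, adjusted p = 6.28e-13), and the other iRhom gene Rhbdf1 was not called (0.08 ± 0.04, adjusted p = 0.115). Of 5 tested tetraspanins that escort ADAM10, Tspan5 (-0.74 ± 0.06, adjusted p = 1.44e-10) and Tspan17 (-0.34 ± 0.08, adjusted p = 0.000433) fell, and Tspan14 was not called (-0.07 ± 0.08). Tspan33 rose from a low level (1.11 ± 0.22, adjusted p = 0.00013), and Tspan15 was called at 0.11 ± 0.04 (adjusted p = 0.0165). The call of Tspan15 was lost without Ad-Cre-GFP library 2 (adjusted p = 0.0715) and without Ad-GFP library 1 (adjusted p = 0.107).

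Of 14 tested surface proteins that ADAMs shed, 5 rose and 8 fell (median -0.28). The largest rise was that of Nrg1, an ERBB ligand precursor, at 262 ± 1.79 CPM in Ad-Cre-GFP and 35.2 ± 1.24 CPM in Ad-GFP (2.89 ± 0.04, adjusted p = 4.84e-24). Of the 6 tested EGF receptor ligands, 2 rose and 4 fell. The rises were those of Ereg (0.81 ± 0.06, adjusted p = 5.45e-11) and Tgfa (0.74 ± 0.08, adjusted p = 6.39e-08). The falls were those of Areg (-1.08 ± 0.08, adjusted p = 1.26e-10), Epgn (-1.07 ± 0.35, adjusted p = 0.00963), Btc (-0.65 ± 0.05, adjusted p = 6.30e-10) and Hbegf (-0.35 ± 0.05, adjusted p = 8.34e-07). The Epgn call did not hold in DESeq2 (adjusted p = 0.0692) or without Ad-GFP library 2 (adjusted p = 0.0831). Epgn passed the filter on counts only through Ad-GFP and had to differ to be tested, and it is counted in these falls and in the median. Cx3cl1, a membrane-bound chemokine released by ADAM10 and ADAM17, fell (5.97 ± 0.368 CPM in Ad-Cre-GFP and 20.1 ± 1.29 CPM in Ad-GFP, -1.75 ± 0.08, adjusted p = 1.35e-14).

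Of 13 substrates of ADAMTS proteases and binding partners of ADAMTS-like proteins, 4 were tested, with 1 rise and 2 falls. The proteoglycan substrates of Adamts1 and Adamts5 on this list were scarce. Vcan, versican, was at 0.612 ± 0.0613 CPM in Ad-Cre-GFP and 0.4997 ± 0.194 CPM in Ad-GFP and was not called (0.26 ± 0.33, adjusted p = 0.493), Acan had 5 counts in all Ad-Cre-GFP libraries and 1 in all Ad-GFP libraries, and Bcan had 2 and 4. Comp, the substrate of Adamts7, had 30 and 9 counts and was not tested. Among substrates of the procollagen N-proteinases, Col3a1 was at 738 ± 24.6 CPM in Ad-Cre-GFP and 2348 ± 100.3 CPM in Ad-GFP and fell (-1.67 ± 0.04, adjusted p = 4.29e-20), and Col1a1 fell less (-0.16 ± 0.03, adjusted p = 0.000323). Fbn1, the fibrillin bound by several ADAMTS-like proteins, rose by 0.43 ± 0.15 (adjusted p = 0.0141), a call lost without Ad-Cre-GFP library 2 (adjusted p = 0.0678) and without Ad-GFP library 3 (adjusted p = 0.065).

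**Figure D5:**
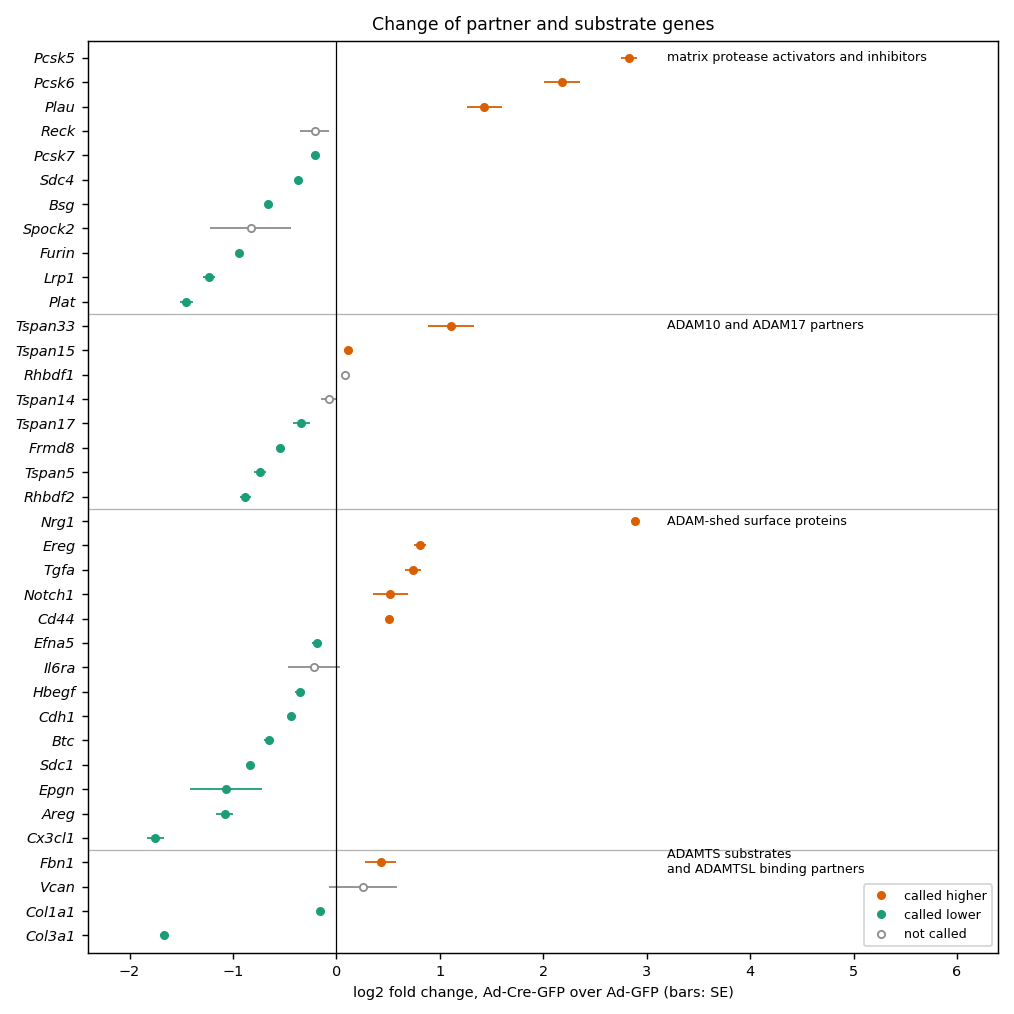
Log2 fold change of the 37 tested partner and substrate genes, Ad-Cre-GFP over Ad-GFP, with bars of 1 SE, in 4 lists; filled symbols passed an adjusted p of 0.05. Nrg1 (2.89) and Pcsk5 (2.83) lie farthest right, and Cx3cl1 (-1.75) and Col3a1 (-1.67) farthest left.

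The libraries did not all sit alike. Ad-GFP library 3, the shallowest, was the highest Ad-GFP library for 28 of the 41 tested members and for 19 of the 23 that fell. Without it, 10 members rose and 21 fell. The replicate libraries are labelled only by number, so that p-values measure the spread between these libraries, which may be technical, and deletion, Cre exposure and any difference between cultures cannot be told apart in this design.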

How the data were processed

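Poly(A)-selected RNA of 6 libraries was sequenced, per the labels' protocols. The authors deposited raw counts per gene, made from BAM files, per the file headers. Kallisto 0.46.2, sleuth 0.30.1 and GRCm38 appear in the submitters' processing notes. The aligner, counting tool and strand setting were not given in the sources used here. GENCODE mouse release 21 (GRCm38) supplied symbols, biotypes, exons and coordinates, matched on unversioned gene IDs for 48058 of 48440 genes.

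Genes were filtered with filterByExpr, scaled by TMM and tested in edgeR 4.0.16 (quasi-likelihood, robust, R 4.3.3), Ad-Cre-GFP over Ad-GFP, with Benjamini-Hochberg adjustment over 14811 genes. SE is the size of the log2 change over the root of F. Library totals of 18690235 to 30304033 counts and a common biological coefficient of variation of 3.06% let small changes pass. Replicates differed by more than sampling noise (chi-square per gene 2.04 to 4.27), and all 6 libraries were kept. The test was checked on simulated counts in which 200 genes changed, evenly up and down. Far more genes were called here, so that this check does not cover scaling or error rates in these data. Near-identical transcripts were searched with minimap2 2.31 (at least 200 bases at 90% identity). Alternatives used DESeq2 1.42.0, limma 3.58.1 and others given with the results.

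Genes are named if their mean is at least 5 CPM, if they are among the 4 largest called rises or falls below that, or if they are TIMPs, Adam10 or Adam17. Partner genes are the 3 largest called rises and falls of each list. Other genes are named to account for all members, as neighbours or as examples, and were picked with their values in view. Members and lists were chosen with earlier results of these data known.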

Additional observations from a re-analysis of the deposited data

How the results depend on the processing

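The members had 10 rises and 23 falls. Both counts were the same with DESeq2's size factors in edgeR, upper-quartile scaling, limma-voom and no robust dispersion. They were 11 and 22 with no filter on low counts, 8 and 21 at a mean of at least 1 CPM, which tested fewer members (33), and 9 and 20 with DESeq2. Leaving out 1 library at a time gave 9 to 11 rises and 20 to 24 falls. The partner genes had 11 rises and 20 falls, and 9 to 14 rises and 19 to 21 falls under all 14 alternatives. Of the 33 called members, 28 stayed called in every alternative that tested them, and the exceptions were Adam15, Adamts10, Timp3, Adam32 and Mmp23. Adamts6, which was not called, ranged from -0.01 (without Ad-GFP replicate 2) to 0.08 with 1 library left out. Of other members without a call, Mmp17 and Adamts14 changed sign without Ad-GFP replicate 2 and Adam8 without Ad-GFP replicate 3. Without a filter Adamts15 (2.86, adjusted p = 0.0368) and Adamts16 (-1.29, adjusted p = 0.0384) were called too. The median log2 change of all genes lay between -0.019 and 0.06 in all fits, so scaling moved no direction of a called member.

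With the replicate number as a block, 10 members rose and 23 fell, as without it. Same-numbered libraries of the 2 groups deviated together with correlations of only 0.049, 0.051 and 0.005, and library 3 of Ad-Cre-GFP correlated better with another number, so the labels' numbers were not taken as pairs. Members at a few counts per library are limited by depth, and their absence of a call does not show that they did not change.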
